A study of Homo sapiens with 6 samples.

Results

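The 34 genes described here carry out or control the synthesis of cholesterol and fatty acids, and were taken by gene symbol from the 35474 genes of the count table. Of these, 8 act between acetyl-CoA and squalene (the mevalonate steps), 10 act from squalene to cholesterol, 6 control the transcription factors called SREBP or move sterol within the cell, 7 make or modify fatty acids and 3 are classic targets of the liver X receptors (LXR) in sterol export or lipoprotein uptake. The data are RNA sequencing of A549, a human lung adenocarcinoma cell line, collected 48 h after transfection with an siRNA. There were 3 siBAP18 libraries (siRNA against BAP18, a chromatin protein encoded by C17orf49) and 3 siCtrl libraries (a non-specific siRNA). The labels call the 3 libraries of a group biological replicates without naming separate cultures, and which of the BAP18 siRNAs these cells received is not given in the sources used here.

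SREBP proteins are made as membrane-bound precursors of the endoplasmic reticulum. When sterol is scarce, the escort protein SCAP carries them to the Golgi, where proteases free the part that enters the nucleus and switches on the genes of sterol and fatty acid synthesis. When sterol is plentiful, INSIG proteins hold SCAP and SREBP back, while oxysterols activate LXR, which switches on genes that export cholesterol.

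Each library held between 42094524 and 56548620 counts, and all 34 genes were among the 20776 that passed the filter on low counts. The lowest count of any of the 34 genes in any library was 108. C17orf49, the targeted gene, had 5.27, 6.21 and 5.70 RPKM (reads per kilobase of exon and per 1000000 counts of the library) in siCtrl replicates 1, 2 and 3, and 0.846, 0.922 and 0.976 RPKM in siBAP18 replicates 1, 2 and 3. Its log2 fold change was −2.65 ± 0.11 (SE; adjusted p = 7.31e-16). Mitochondrial genes took 6.86% to 7.43% of the counts in siCtrl and 5.27% to 6.14% in siBAP18. Among epithelial markers (KRT8, KRT18, KRT19, EPCAM, CDH1), 4 of 5 fell, beside 25.1% of all genes tested. Their summed level, most of it KRT8 and KRT18, was 3830 to 4057 RPKM in siCtrl and 2972 to 3438 RPKM in siBAP18. CDH1 fell by 1.32 on the log2 scale, to 39.9% of the siCtrl mean, while KRT19, at 0.15, did not pass the test. The markers of other cell types that were analysed here, PECAM1, VWF and COL1A1, summed to 1.27 to 1.39 RPKM in siCtrl and 0.883 to 1.08 RPKM in siBAP18, and VWF had between 0 and 6 counts. The part of these shifts in the results was not tested.

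The stretches that follow show the letters searched for in the promoters of these genes. They are the parts of the RefSeq promoters (GRCh38.p14) of SREBF2, INSIG1, MSMO1, STARD4 and NSDHL that lie upstream of the first exon base in the count table, and these genes were chosen as 4 that fell and 1 that did not pass the test. Capitals mark CCAAT, the box read by NF-Y (written ATTGG where it lies on the other strand), and the sterol regulatory element TCACNCCAC or its shorter core CACNCCAC, which the longer word contains, on either strand. The last capitals of NSDHL are a pair of overlapping matches, one on each strand. They lie at chr22:41832855-41833078 (plus strand), chr7:155297628-155297775 (plus), chr4:165327419-165327622 (plus), chr5:111512591-111512785 (minus) and chrX:152830813-152830966 (plus), in the order of the lines.
SREBF2: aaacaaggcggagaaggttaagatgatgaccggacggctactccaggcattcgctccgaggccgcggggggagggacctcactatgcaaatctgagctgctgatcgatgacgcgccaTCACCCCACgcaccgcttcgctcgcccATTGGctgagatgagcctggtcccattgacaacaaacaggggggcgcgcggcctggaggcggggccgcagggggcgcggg
INSIG1: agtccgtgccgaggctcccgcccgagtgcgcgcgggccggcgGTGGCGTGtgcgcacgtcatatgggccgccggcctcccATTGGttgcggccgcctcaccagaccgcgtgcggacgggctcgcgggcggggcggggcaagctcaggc
MSMO1: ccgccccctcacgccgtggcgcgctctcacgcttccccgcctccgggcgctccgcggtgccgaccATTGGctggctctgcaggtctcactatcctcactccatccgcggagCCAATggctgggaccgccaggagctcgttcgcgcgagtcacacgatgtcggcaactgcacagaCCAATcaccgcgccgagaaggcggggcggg
STARD4: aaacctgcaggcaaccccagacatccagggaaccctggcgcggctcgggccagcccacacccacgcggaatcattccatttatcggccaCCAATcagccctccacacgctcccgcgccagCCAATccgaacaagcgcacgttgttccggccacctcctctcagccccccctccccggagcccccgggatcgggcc
NSDHL: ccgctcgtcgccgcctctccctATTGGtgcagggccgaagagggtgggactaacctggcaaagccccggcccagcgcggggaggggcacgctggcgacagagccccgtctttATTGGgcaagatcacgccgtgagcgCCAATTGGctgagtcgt

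Of the 34 genes, 29 had a promoter in the RefSeq table, and ABCG1, ACAT2, FASN, FDFT1 and SQLE did not match. Within 250 bases before to 50 bases after the start, TCACNCCAC was found in SREBF2 alone of the 29, against 1.15% of 27305 gene promoters of the same length. The core CACNCCAC stood in 5 (SREBF2, INSIG1, SCD, SC5D and ABCA1), or 17.2%, against 5.74% of all promoters. CCAAT was found in 18, or 62.1%, against 35.7% of all promoters, and in 8 of the 9 genes from squalene to cholesterol that had a promoter. The GC box GGGCGG was in 27, or 93.1%, against 44.6% of all promoters and 67.3% of the promoters of genes tested. The number of copies of CCAAT differed among the genes. MSMO1, with 4 copies of CCAAT in the full window, fell, whereas NSDHL and MVK, with 5 copies each, did not pass the test. A match is a description of letters and not a bound site.

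Knockdown of BAP18 was accompanied by lower levels of most of these genes. Of the 34, 22 fell and 3 rose at an adjusted p under 0.05 by the quasi-likelihood test of edgeR, adjusted over all genes tested by the Benjamini-Hochberg method. Over all 20776 genes tested, 49.6% passed, with 25.1% lower and 24.5% higher. All 34 averaged 1.99 log2 CPM or more, and of the 14222 genes at 1 or more, 31.8% fell and 29.1% rose. The 3 that rose were PMVK, ABCA1 and ABCG1. The median log2 fold change of the 34 was −0.47, beside 0.0010 for all genes tested. In 23 of the 34 genes every siBAP18 library lay below every siCtrl library (29.0% of all genes tested did so), and in 4 every siBAP18 library lay above (27.6%). The 27 genes without overlap stand beside 56.6% of all genes tested. A log2 fold change below −1 together with the adjusted p was found for 5 genes (ACAT2, HMGCS1, MSMO1, STARD4 and ELOVL6), and no gene of the 34 rose past 1, against 3.74% and 4.72% of all genes tested. Each of the 5 lay between −1 and 0 under some alternative while still passing the test. On the log2(RPKM + 1) scale ACAT2 was at −0.92, MSMO1 at −0.82, ELOVL6 at −0.80 and STARD4 at −0.67, and with GC and length offsets HMGCS1 was at −0.90. In bulk RNA, fewer cells expressing a gene and less of its RNA per cell cannot be told apart.

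The median over the 34 genes of the log2 CPM (counts per 1000000, scaled between libraries by TMM) relative to the siCtrl mean was −0.45, −0.44 and −0.41 in siBAP18 replicates 1, 2 and 3. The same median lay between −0.02 and 0.01 in the siCtrl libraries. As a share of the unscaled total counts, the 34 genes together took 4478, 4594 and 4402 of every 1000000 counts in siCtrl and 3013, 3088 and 2958 in siBAP18. Over all 34 genes, the 3 siBAP18 libraries were close to each other and apart from all siCtrl libraries on both measures. Most of this share belonged to the 7 fatty acid genes, which took 3078, 3183 and 3013 of every 1000000 in siCtrl and 1912, 1984 and 1854 in siBAP18. The 18 sterol synthesis genes went from 1169, 1172 and 1158 to 905, 907 and 905 of every 1000000. Their median log2 CPM relative to the siCtrl mean varied more, at −0.27, −0.31 and −0.17 in siBAP18 replicates 1, 2 and 3. For the fatty acid genes it was −0.65, −0.71 and −0.56.

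**Figure D1:**
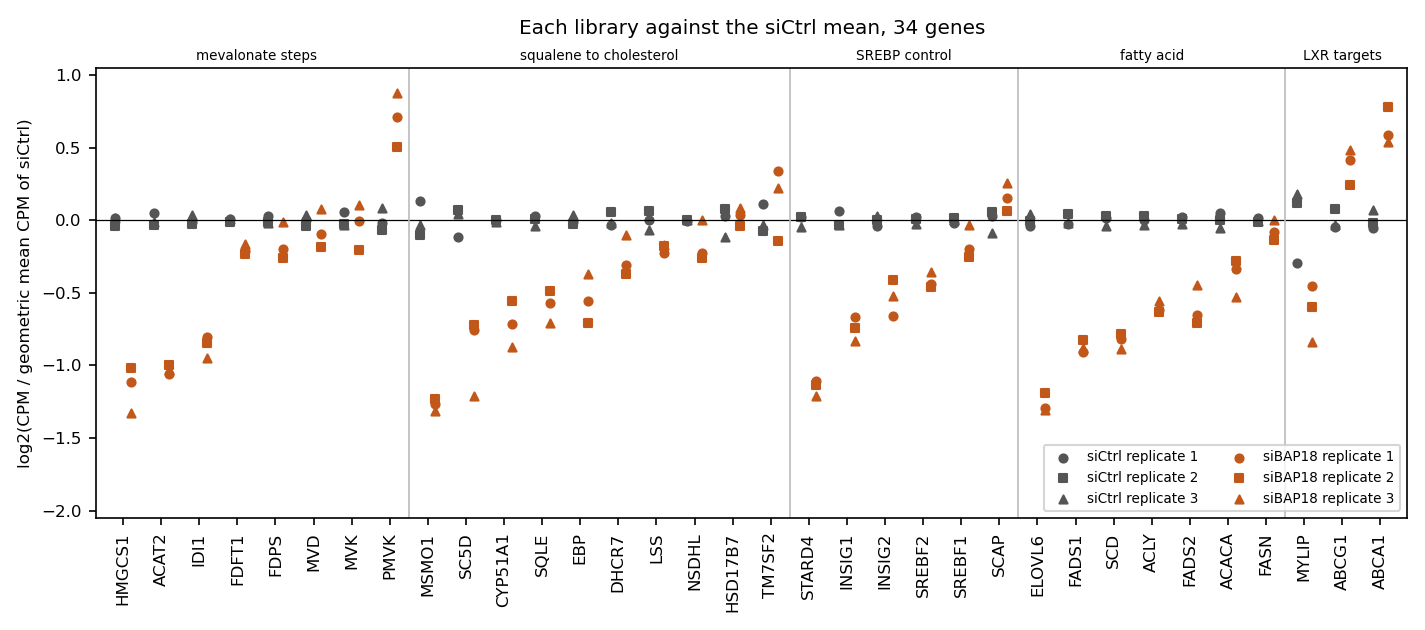
Level of each of the 34 genes in each of the 6 libraries, as log2 of the CPM over the geometric mean CPM of the siCtrl libraries (y axis), with genes grouped by role and ordered by fold change (x axis). Grey marks siCtrl and orange siBAP18, and in 23 genes all 3 orange symbols lie below all 3 grey ones.

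The first 8 genes act between acetyl-CoA and squalene, without covering every step, and their responses differed widely. HMGCS1, the synthase that makes HMG-CoA (chr5:43289395-43313512, minus strand, GRCh38), had 163, 157 and 163 CPM in siCtrl and 74.1, 79.5 and 64.2 CPM in siBAP18. All siBAP18 values were lower, at 45.2% of the siCtrl mean, and the log2 fold change was −1.15 ± 0.07 (SE; adjusted p = 3.00e-12). ACAT2, the cytosolic thiolase that starts the route (chr6:159760328-159779055, plus strand), had 57.9, 54.6 and 55.4 CPM in siCtrl and 26.9, 28.1 and 27.4 CPM in siBAP18, without overlap. Its log2 fold change was −1.03 ± 0.07 (SE; adjusted p = 5.12e-12). IDI1, the isomerase of the isoprenoid units, had 52.6, 52.0 and 54.2 CPM in siCtrl and 30.3, 29.4 and 27.4 CPM in siBAP18. It too fell without overlap, by 0.86 on the log2 scale (SE 0.07; adjusted p = 1.53e-10).

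The other 5 genes of the mevalonate steps were 1 that rose, 1 that fell and 3 that did not pass. PMVK, the phosphomevalonate kinase (chr1:154924734-154936991, minus strand), had 45.0, 43.7 and 48.5 CPM in siCtrl and 75.0, 64.8 and 83.7 CPM in siBAP18. Every siBAP18 library was above every siCtrl library, and PMVK rose by 0.70 ± 0.08 on the log2 scale (SE; adjusted p = 6.80e-08). FDFT1, which makes squalene, fell by 0.20 (SE 0.06; adjusted p = 0.0104), from 155 ± 1.15 to 135 ± 3.24 CPM (mean ± SD, n = 3). MVK, the mevalonate kinase, had a log2 fold change of −0.03 (95% confidence interval −0.19 to 0.13; adjusted p = 0.758), and MVD, the decarboxylase, one of −0.07 (−0.22 to 0.09; adjusted p = 0.495). FDPS, which makes farnesyl diphosphate, had 175, 169 and 169 CPM in siCtrl and 149, 143 and 170 CPM in siBAP18. Replicate 3 of siBAP18 lay among the siCtrl libraries, and its log2 fold change of −0.15 did not pass (95% confidence interval −0.30 to −0.01; adjusted p = 0.0737). In all, 4 of the 8 fell and 1 rose, with a median of −0.18.

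From squalene to cholesterol, 7 of 10 genes fell and none rose by the same test, with a median log2 fold change of −0.40. MSMO1, a sterol methyl oxidase (chr4:165327623-165343160, plus strand), had 9.21, 7.83 and 8.24 CPM in siCtrl and 3.49, 3.58 and 3.38 CPM in siBAP18. The groups were far apart, at 41.3% of the siCtrl mean, and its log2 fold change of −1.27 ± 0.11 (SE; adjusted p = 1.02e-09) was the lowest of the 34. SC5D, a sterol desaturase, had 7.29, 8.30 and 8.13 CPM in siCtrl and 4.67, 4.79 and 3.40 CPM in siBAP18. Replicate 3 of siBAP18 was the lowest, and it fell by 0.87 (SE 0.12; adjusted p = 2.01e-06). SQLE, the epoxidase that opens this stretch of the route, had 107, 105 and 102 CPM in siCtrl and 70.5, 74.8 and 64.2 CPM in siBAP18, a fall of 0.58 (SE 0.07; adjusted p = 1.18e-07).

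CYP51A1, the lanosterol demethylase, fell by 0.71 (SE 0.07; adjusted p = 1.84e-08), from 76.8 ± 0.389 to 47.0 ± 5.23 CPM (mean ± SD, n = 3). EBP, a sterol isomerase, fell by 0.54 (adjusted p = 2.09e-06) from 55.8 ± 1.27 to 38.4 ± 4.56 CPM. Smaller falls were measured for DHCR7, the reductase of a last step, at 0.26 (adjusted p = 0.00536), and for LSS, the lanosterol synthase, at 0.19 (adjusted p = 0.0230). The call of LSS was lost at an adjusted p of 0.0704, 0.123 and 0.0994 when siCtrl replicate 1, siCtrl replicate 2 or siBAP18 replicate 1 was left out. The others did not pass. NSDHL, a dehydrogenase that works beside MSMO1, had a log2 fold change of −0.16 (95% confidence interval −0.31 to −0.01; adjusted p = 0.0744). HSD17B7, a sterol ketone reductase, was at 0.02 (−0.14 to 0.19; adjusted p = 0.820), and TM7SF2, a sterol reductase, at 0.15 (−0.11 to 0.40; adjusted p = 0.351).

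**Figure D2:**
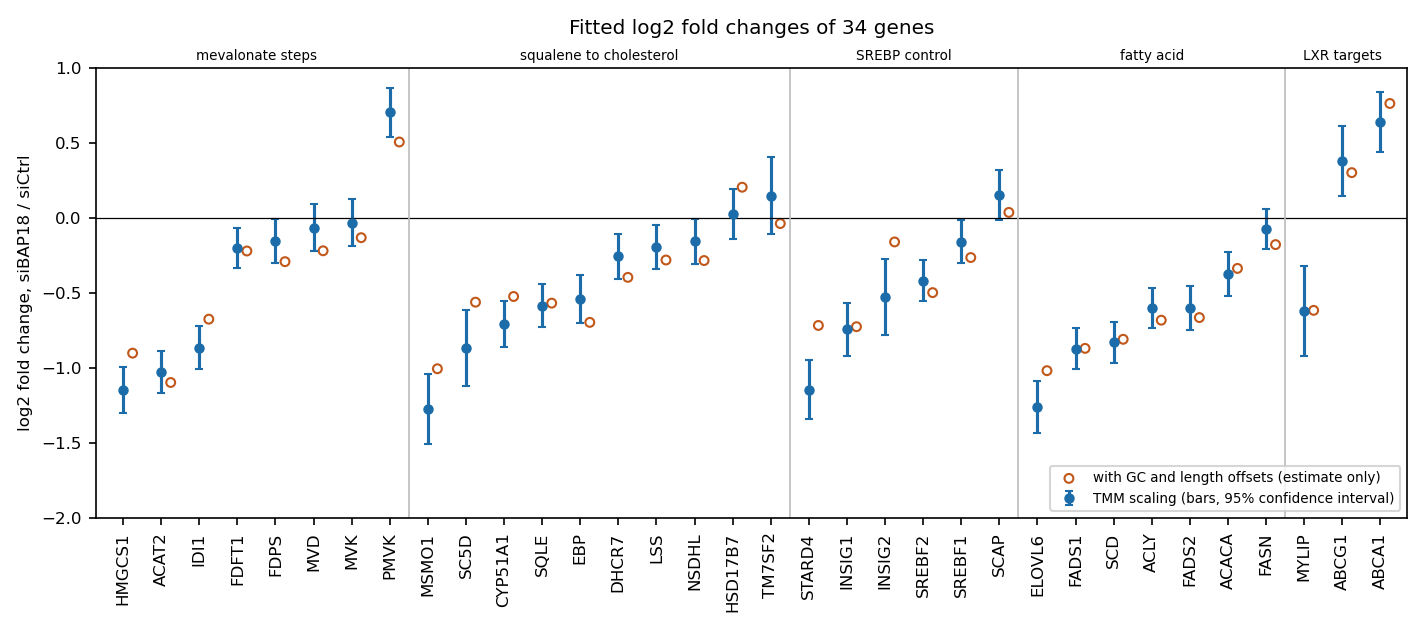
Fitted log2 fold change of siBAP18 against siCtrl for each gene (filled symbols, y axis) with its 95% confidence interval, beside the estimate from a fit corrected by GC and length offsets (open symbols). MSMO1, ELOVL6, STARD4, HMGCS1 and ACAT2 lie below −1, and PMVK, ABCA1 and ABCG1 lie above 0 with intervals that do not reach it.

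Among the 6 genes that control SREBP or carry sterol, 4 fell and none rose, with a median log2 fold change of −0.47. STARD4, a soluble sterol carrier (chr5:111496033-111512590, minus strand), had 12.4, 12.4 and 11.8 CPM in siCtrl and 5.66, 5.56 and 5.28 CPM in siBAP18. It fell by 1.15 (SE 0.10; adjusted p = 2.90e-10), with no overlap. INSIG1, itself a well known SREBP target, had 16.2, 15.2 and 15.2 CPM in siCtrl and 9.79, 9.26 and 8.73 CPM in siBAP18. All 3 siBAP18 libraries were lower, and INSIG1 fell by 0.74 (SE 0.09; adjusted p = 8.80e-08). INSIG2, its relative, fell by 0.53 (SE 0.12; adjusted p = 0.000805), from 5.38 ± 0.127 to 3.73 ± 0.321 CPM (mean ± SD, n = 3). In a fit corrected by GC and length offsets, INSIG2 was at −0.16 and its call was lost (adjusted p = 0.266).

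The genes of the transcription factors themselves had log2 fold changes nearer to 0 than those of STARD4 and INSIG1. SREBF2, whose protein acts mainly on sterol genes, had 73.2, 72.5 and 70.7 CPM in siCtrl and 53.2, 52.5 and 56.3 CPM in siBAP18. It fell by 0.42 (SE 0.07; adjusted p = 9.05e-06), to 74.9% of the siCtrl mean. SREBF1, whose protein acts mainly on fatty acid genes, had 94.1, 96.5 and 95.8 CPM in siCtrl and 83.3, 80.0 and 93.2 CPM in siBAP18. Its groups did not overlap, but the log2 fold change of −0.16 did not pass (95% confidence interval −0.30 to −0.02; adjusted p = 0.0587). On the RPKM scale, the ratio of SREBF2 to SREBF1 was 0.803 ± 0.0216 in siCtrl and 0.673 ± 0.0284 in siBAP18 (mean ± SD, n = 3), without overlap. SCAP, the escort, had a log2 fold change of 0.16 (−0.01 to 0.32; adjusted p = 0.115), with 2.42 to 2.72 RPKM in siCtrl and 2.79 to 2.98 RPKM in siBAP18.

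Of the 7 fatty acid genes 6 fell and none rose, with a median log2 fold change of −0.60. SCD, the desaturase that makes monounsaturated fatty acids (chr10:100347124-100364834, plus strand), was the most abundant of the 34 genes, with 194, 200 and 187 RPKM in siCtrl and 111, 116 and 101 RPKM in siBAP18. The groups were well apart, and SCD fell by 0.83 (SE 0.07; adjusted p = 1.28e-10). ELOVL6, an elongase of long saturated chains (chr4:110045846-110199199, minus strand), had 19.2, 19.8 and 20.4 CPM in siCtrl and 8.07, 8.66 and 7.99 CPM in siBAP18, at 41.6% of the siCtrl mean. Its log2 fold change was −1.26 ± 0.08 (SE; adjusted p = 4.80e-12). FADS1, a desaturase of polyunsaturated chains, had 845, 884 and 850 CPM in siCtrl and 458, 484 and 467 CPM in siBAP18, a fall of 0.87 (SE 0.07; adjusted p = 4.43e-11). FADS2, its neighbour on chromosome 11, fell by 0.60 (SE 0.07; adjusted p = 1.26e-07).

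ACLY, which cuts citrate to give cytosolic acetyl-CoA for both routes, had 475, 483 and 462 CPM in siCtrl and 308, 305 and 322 CPM in siBAP18. It fell by 0.60 (SE 0.06; adjusted p = 2.24e-08) without overlap. ACACA, the carboxylase that makes malonyl-CoA, fell by 0.38 (SE 0.07; adjusted p = 8.80e-05), from 128 ± 4.48 to 98.5 ± 8.81 CPM (mean ± SD, n = 3). FASN, the synthase that follows it, had 208, 205 and 206 CPM in siCtrl and 196, 188 and 207 CPM in siBAP18. Its groups overlapped, and the log2 fold change was −0.07 (95% confidence interval −0.21 to 0.06; adjusted p = 0.380). ACACA before FASN, and SCD and ELOVL6 after it, thus fell in this fit, while the interval of FASN lay between −0.21 and 0.06. With GC offsets in the fit, alone or joined with length offsets, FASN also fell at an adjusted p under 0.05.

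**Figure D3:**
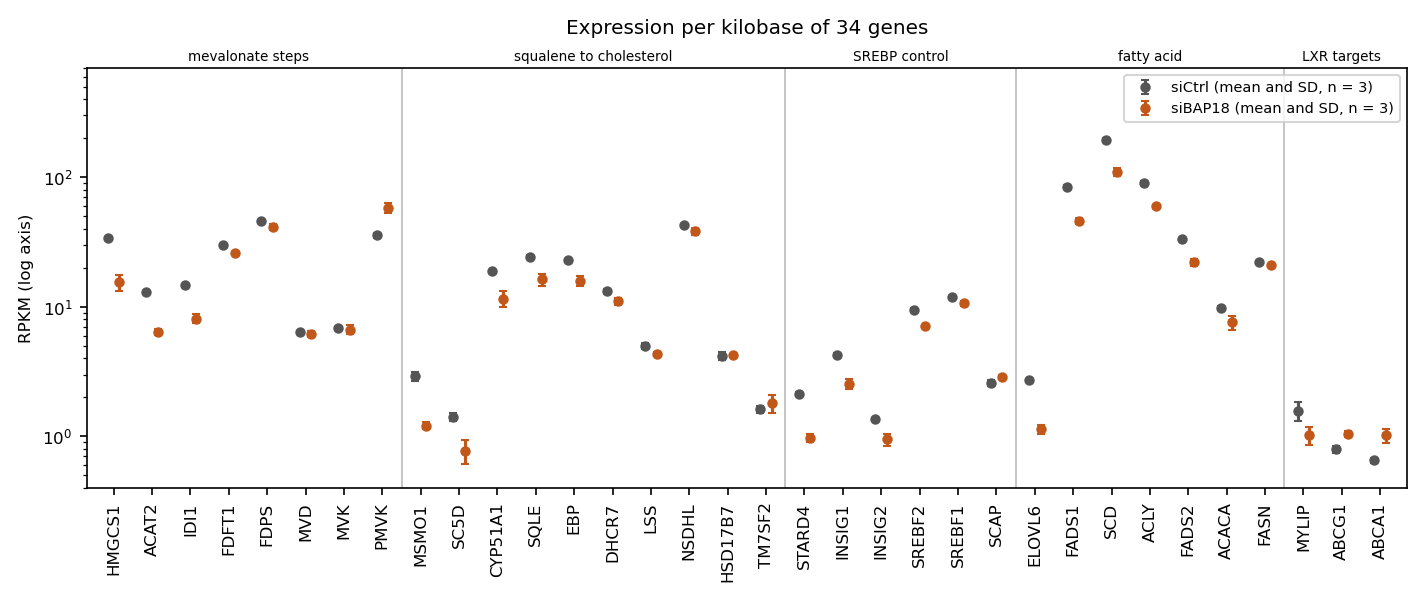
Level of each gene per kilobase in siCtrl (grey) and siBAP18 (orange), as the mean of the deposited RPKM with its SD over 3 libraries, on a log axis. Levels ran from 194 RPKM for SCD to 0.651 RPKM for ABCA1 in siCtrl, and PMVK, ABCA1 and ABCG1 stand higher in siBAP18.

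Per kilobase, SCD in siCtrl (194 ± 6.24 RPKM, mean ± SD, n = 3) was followed by ACLY (90.6 ± 2.87), FADS1 (83.9 ± 3.00), FDPS (45.9 ± 0.778) and NSDHL (42.5 ± 0.519). The LXR targets ABCA1 and ABCG1 closed the order, with ABCA1 at 0.651 ± 0.0285 RPKM and ABCG1 at 0.797 ± 0.0471 RPKM. In siBAP18 the mean of PMVK (58.1 ± 5.43 RPKM) was near that of ACLY (59.7 ± 0.567), with overlapping libraries, whereas in siCtrl PMVK was at 35.6 ± 1.70 RPKM. The FADS1 to FADS2 ratio of RPKM was 2.51 ± 0.0727 in siCtrl and 2.09 ± 0.225 in siBAP18.

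The 3 LXR targets did not move together. ABCA1, which loads cholesterol onto lipoproteins (chr9:104781002-104928237, minus strand), had 7.14, 7.29 and 7.79 CPM in siCtrl and 11.1, 12.7 and 10.7 CPM in siBAP18. Every siBAP18 library was higher, and ABCA1 rose by 0.64 ± 0.10 on the log2 scale (SE; adjusted p = 4.79e-06). ABCG1, a second sterol exporter, had 4.74, 5.16 and 4.77 CPM in siCtrl and 6.52, 5.77 and 6.83 CPM in siBAP18, a rise of 0.38 ± 0.11 (SE; adjusted p = 0.00734). MYLIP, a ubiquitin ligase that removes lipoprotein receptors, had 3.87, 5.16 and 5.39 CPM in siCtrl and 3.47, 3.15 and 2.66 CPM in siBAP18. Its first siCtrl library was close to the siBAP18 libraries, and MYLIP fell by 0.62 (SE 0.15; adjusted p = 0.000918).

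Base composition moved with the fold changes. Over the 14176 genes whose average was 1 log2 CPM or more and whose GC content was known, the fold change and the GC content of the longest transcript had a Pearson r of 0.289, as a description across genes of the same 6 libraries, and over the 34 genes the r was 0.614. The median log2 fold change of all such genes ran from −0.32 at 30% to 40% GC to 0.15 at 60% to 80% GC. Of the 17 genes with less GC, 15 fell, with a median of −0.74, and of the 17 with more GC, 7 fell, with a median of −0.16. Of all genes tested 25.1% fell, and the share that fell among genes of like GC was not counted. With both GC and length offsets in the fit, 26 of the 34 fell and 4 rose, beside 24.2% and 25.9% of all genes tested. Among them were MVD, FDPS, NSDHL, SREBF1 and FASN, which then fell, and HSD17B7, which then rose by 0.20 (adjusted p = 0.0262). STARD4 was at −0.72 and SC5D at −0.56 in that fit, nearer to 0 than without the offsets. The sterol synthesis median was −0.34 and the fatty acid median −0.68.

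**Figure D4:**
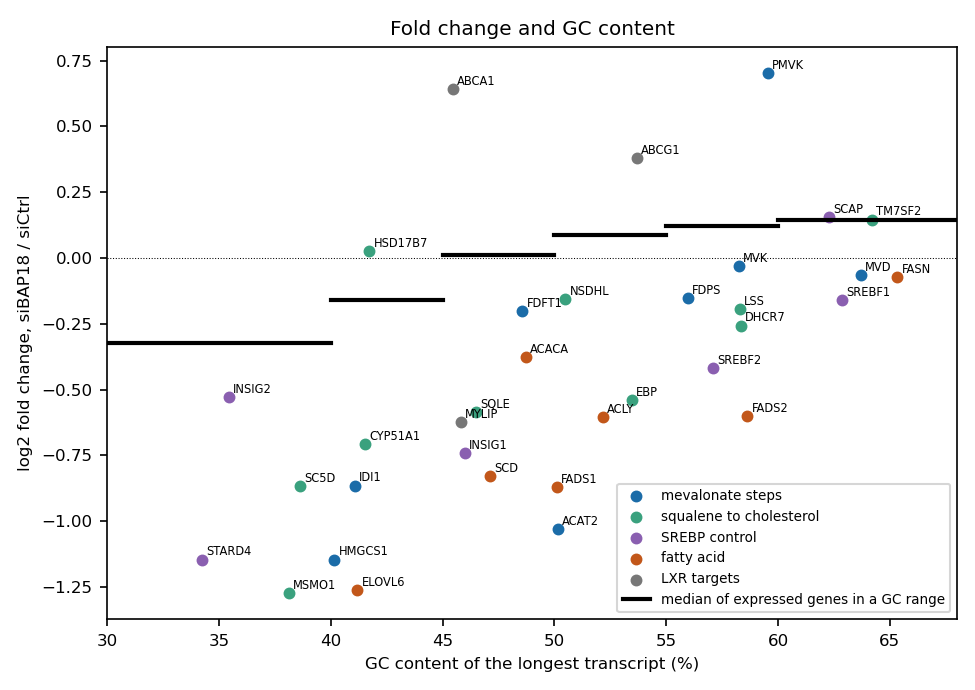
Log2 fold change of each of the 34 genes (y axis) against the GC content of its longest transcript (x axis, percent), coloured by role, with black bars for the median of all genes averaging 1 log2 CPM or more in each GC range. The bars run from −0.32 to 0.15, and SCD, FADS1, ACAT2 and ELOVL6 lie well below the bar of their range.

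Words complementary to the seed of each BAP18 siRNA and of siCtrl, 7 bases long, were looked for in the 3′ UTRs of 14192 tested genes. The word of siBAP18#3 was in 1098 of them, whose median log2 fold change was −0.24 beside 0.0072 for the rest. Of the 34 genes, ACAT2 and ELOVL6 held it, and of the 32 that did not, 20 fell, with a median of −0.40. Over all genes, the medians with and without the word of siBAP18#1 were −0.14 and 0.01, and those for siBAP18#2 were −0.13 and 0.0067. For the word of siCtrl, held by 481 genes and 0 of the 34, they were 0.01 and −0.01. Genes with and without a word were not matched for GC content. The word of siBAP18#1 was in 7 of the 34, with a median of −0.26, and of the 27 without it 17 fell, with a median of −0.54. The word of siBAP18#2 was in 5 (STARD4, SCD, ACLY, FADS2 and ELOVL6), all of which fell, with a median of −0.83, and of the 29 without it 17 fell, with a median of −0.26. These counts of genes that fell stand beside 25.1% of all genes tested. The part of these words in the results was not tested.

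Some of these genes share exon bases with another gene of the table. CYP51A1 shares 78.8% of its listed exon bases with LRRD1 on the same strand, and LRRD1 had a log2 fold change of −0.71. In siCtrl replicates 1, 2 and 3 CYP51A1 had 4097, 3582 and 3569 counts and LRRD1 4000, 3482 and 3470. In siBAP18 they had 2541, 3058 and 1699 counts and 2484, 2950 and 1648 counts. The reads of the pair cannot be told apart here, and whether reads were counted for both genes was not tested. On the opposite strand, 43.0% of the exon bases of ACAT2 lie in SOD2 (log2 fold change 0.15; adjusted p = 0.117) and 9.23% in TCP1 (−0.46; adjusted p = 3.95e-06). HMGCS1 shares 15.0% with CTD-2636A23.2 (−1.11), IDI1 17.9% with IDI2-AS1 (−0.87) and FDPS 18.6% with RUSC1-AS1 (−0.17). FADS1 and FADS2, also on opposite strands, share 490 exon bases with each other, 4.79% of those of FADS1 and 4.44% of those of FADS2. The libraries mark strand, but the strand setting of the counting is not given in the sources used here, and the values of these genes are uncertain to that extent. HSD17B7 and FDPS also have pseudogenes of near-identical sequence, between which reads may have been split.

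Genes that process or assist SREBP were measured beside the 34, and their counts are to be read against the 25.1% of all genes tested that fell and the 24.5% that rose. Of 13 genes in a list of SREBP proteases, partner factors and degradation factors, 4 fell (30.8%, near that background) and 2 rose, with a median log2 fold change of 0.01. USF2, a partner factor, rose by 0.57 (adjusted p = 9.00e-07), while the paralogues ERLIN1 and ERLIN2, which take part in degrading sterol-regulated proteins, went in opposite directions, at −0.51 and 0.51. Of 5 accessory factors of sterol enzymes 3 fell and 1 rose, with PGRMC1 at −0.61, C14orf1 at −0.43 and CYB5B at −0.41. A further 11 genes make or use isoprenoid diphosphates for products other than sterols, or process prenylated proteins. Of these, 3 fell (27.3%, also near that background) and 4 rose, with a median of 0.06. PGGT1B, a subunit of a geranylgeranyl transferase, fell by 0.97 (adjusted p = 1.23e-07) and FNTB, a farnesyl transferase subunit, by 0.49, while COQ2, of coenzyme Q synthesis, rose by 0.48 (adjusted p = 0.000382). Among 9 genes of LXR, its partner receptors and further LXR targets 4 rose and 2 fell. The LXR gene NR1H2 was at 0.39 (adjusted p = 0.000267) and the partner RXRB at 0.44 (adjusted p = 0.000382). Named after their values were seen, the LXR gene NR1H3 rose by 0.32 (adjusted p = 0.00173) and 2 targets fell. These were SMPDL3A at −0.56 (adjusted p = 0.0349) and TTC39B at −0.50 (adjusted p = 0.0262), both with overlapping libraries.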

How the data were processed

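Poly(A) RNA of 6 A549 libraries was sequenced. The authors deposited counts, as whole numbers of reads per gene with no normalization, and RPKM values. The deposited RPKM equal the count per kilobase of listed exon length relative to the total of the column, within a relative 1e-06, for 100% of values. The submitters' processing notes name the builds hg38 and GRCm38. The positions in the table are those of hg38 (GRCh38), and the aligner, counting program and strand setting are not given in the sources used here.

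The tests ran in edgeR 4.0.16 under R 4.3.3 (filterByExpr, TMM, quasi-likelihood test, Benjamini-Hochberg adjustment over 20776 genes), without a block. The SE is the log2 fold change over the square root of F. The fit was tested on simulated data of 20732 genes, where 200 of 200 changed genes and 13 others were called at an adjusted p under 0.05. The changed genes there had a median absolute log2 fold change of 1.00, and a single setting of replicate spread served all genes. Smaller changes, such as most of those reported here, and wider spread were therefore not tested by it. limma 3.58.1 and DESeq2 1.42.0 served for alternatives, and Python 3.11.15, numpy 2.4.6, pandas 2.3.3 and matplotlib 3.10.9 for tables and plots. Alternatives were DESeq2 size factors, upper-quartile factors, total counts, dropping the filter, a minimum of 10 counts per library, the DESeq2 Wald test, limma on log2 RPKM with 1 or 0.1 added for genes averaging 0.5 RPKM or more, limma with 1 added and no filter, a fold threshold, a replicate block and each library left out. GC content came from GENCODE 29 transcripts, for 99.4% of genes tested.

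The 34 genes and all lists were chosen with earlier results of these data known. All 34 were named by role. For each other list, its counts and up to 3 genes with the smallest adjusted p were named, except 1 that is not reported here. Replicates differed by more than counting error (chi-square per degree of freedom 3.94 to 4.56 in siCtrl and 10.1 to 23.3 in siBAP18), so none was a copy. p-values measure the spread between these libraries, which may be technical. With 0 counts, a gene could have up to 3 counts in a library, a floor that covers counting error only.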

Additional observations from a re-analysis of the deposited data

How the results depend on the processing

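Across the scalings (DESeq2 size factors, upper-quartile factors, total counts), filters and tests tried on counts, between 22 and 24 of the 34 genes fell and 3 rose, and the 22 and the 3 called in the report were among them. limma without a filter gave 20 and 2. With each library left out in turn, 20 to 25 fell and 3 to 4 rose, the sterol synthesis median lay between −0.29 and −0.20, and the fatty acid median between −0.68 and −0.59. Without siBAP18 replicate 3, FDPS, NSDHL and SREBF1 also fell. Without siBAP18 replicate 2, SCAP also rose. FDFT1 lost its call without siCtrl replicate 1 (adjusted p = 0.0511), ABCG1 and MYLIP lost theirs with limma without a filter, and LSS lost its call in all 3 limma fits. On the log2(RPKM + 1) scale, which shrinks low genes, ABCA1 was at 0.29, MSMO1 at −0.82, ELOVL6 at −0.80 and STARD4 at −0.67. With a log2 fold change beyond 1 required as well, 5 fell and 0 rose.

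The residuals gave little sign that the replicate numbers pair the libraries, and pairing itself was not tested. Residuals of same-numbered libraries had a Pearson r of −0.017, 0.051 and 0.0038 across genes. With a replicate block 25 fell and 3 rose, with medians of −0.23 and −0.60, and FDPS, NSDHL and SREBF1 were the genes added. Of all genes tested, 26.5% fell and 25.5% rose with the block, beside 25.1% and 24.5% without it.

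Offsets for GC content, chosen after seeing the data, moved the sterol synthesis median to −0.35 and the fatty acid median to −0.73, and joint GC and length offsets moved them to −0.34 and −0.68. TM7SF2 changed sign to −0.0096 and −0.038. With single libraries left out, HSD17B7 lay between −0.031 and 0.061, below 0 without siCtrl replicate 3 and, at −0.0018, without siBAP18 replicate 3, and MVK between −0.10 and 0.049, above 0 without siBAP18 replicate 2. None of the values that changed sign passed the test. The cause was not tested.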

Other observations

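Genes around the 34 in lipid handling were measured in the same fit. Of 14 genes of sterol transfer, uptake and storage 8 fell and 1 rose, with a median log2 fold change of −0.34. LIPA, the lysosomal lipase that frees cholesterol from its esters, fell by 1.38 (adjusted p = 3.79e-11), TMEM97, a sterol-regulated membrane protein, fell by 0.87 (adjusted p = 8.03e-10), and SOAT1, which stores cholesterol as esters, fell by 0.61 (adjusted p = 1.36e-07). OSBP, named after its values were seen, was the one that rose, by 0.21 (adjusted p = 0.0127).

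Of 19 further genes of lipid synthesis 10 fell and 1 rose, with a median of −0.19. Elongases ELOVL1 (−0.84) and ELOVL5 (−0.75) and the fatty acid activating enzyme ACSL3 (−0.72) had the smallest adjusted p-values. In fatty acid oxidation, which runs against synthesis, 7 of 12 genes fell and none rose, with a median of −0.34. PPARGC1A, a coactivator of mitochondrial genes, fell by 0.72 (adjusted p = 3.16e-07), ACADM, a dehydrogenase of medium chains, by 0.60 (adjusted p = 2.80e-07), and CPT1A, which admits fatty acids to mitochondria, by 0.45 (adjusted p = 3.35e-06). These counts stand beside 25.1% of all genes tested that fell and 24.5% that rose.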
